A study of Mus musculus with 6 samples.

Results

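Fibroblasts (FBs) from the proximal pulmonary arteries (PAs) of old mice were split by whether their RNA held Mmp3, and both classes were compared within each animal. FBs were gated from single cell RNA sequencing libraries of 4 old C57BL/6J mice, with no genetic change or drug treatment in any group. The study describes the old animals, 1 library each, as 3 males (20, 24 and 27 months old) and 1 female (28 months old). Sex-linked RNA of the 20-month library went against this description, as given below. A further 2 young animals of 3 months served only as a reference for Mmp3 detection. The arteries were excised with surrounding tissue and digested with collagenase and elastase, so non-arterial cells could enter. A kept cell had at least 1000 UMIs (molecular tags that mark single RNA molecules), no fewer than 500 genes and no more than 20% of its UMIs from the mitochondrial genome. It was gated as a FB when Pdgfra, Dpt, Clec3b, Col3a1 and Lum together held at least 4 UMIs and more than 2 times the UMIs of Ptprc, Pecam1, Cdh5, Myh11, Msln, Upk3b and Scgb1a1. Each FB was then thinned at random to 1000 UMIs. Members were chosen by their Mmp3 UMIs after thinning. A FB with at least 1 Mmp3 UMI left was Mmp3-positive, and a FB at 0 was Mmp3-negative. Of 9319 cells in the old libraries and 10596 in all 6 libraries, 1463 old cells were gated as FBs. Of these, 309 were Mmp3-positive and 1154 were Mmp3-negative.

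Mmp3 encodes stromelysin-1, a secreted zinc protease that cleaves proteoglycans, fibronectin, laminin and other matrix proteins and can activate the precursors of other matrix metalloproteinases. In connective tissue, FBs are a main source of this enzyme, and interleukin 1, TNF and AP-1 factors are known to induce its gene. Adventitial FBs build and degrade the outer coat of the artery, and single cell studies often separate a Pi16-expressing type from types with other matrix programs.

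Since Mmp3 set the classes, the stretch upstream of its start is shown, beside that of Igfbp5, the gene with the lowest adjusted p between the classes. Both are the 250 bases before the RefSeq gene start in GRCm38.p6, on the strand of the gene, at chr9:7445572-7445821 (plus strand) for Mmp3 and chr1:72874866-72875115 (minus strand) for Igfbp5. Capitals mark TGANTCA, the letters of an AP-1 motif, and TATAAA, both searched on both strands.
Mmp3: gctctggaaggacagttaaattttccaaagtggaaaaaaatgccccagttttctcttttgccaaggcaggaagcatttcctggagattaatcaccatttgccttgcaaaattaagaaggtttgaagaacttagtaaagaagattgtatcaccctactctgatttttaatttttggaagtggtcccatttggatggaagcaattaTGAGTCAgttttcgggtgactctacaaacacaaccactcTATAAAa
Igfbp5: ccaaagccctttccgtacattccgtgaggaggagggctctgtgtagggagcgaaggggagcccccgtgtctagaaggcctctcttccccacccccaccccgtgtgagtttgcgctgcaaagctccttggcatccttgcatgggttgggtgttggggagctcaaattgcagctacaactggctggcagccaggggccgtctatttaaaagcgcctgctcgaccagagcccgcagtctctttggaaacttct
The Mmp3 window held TGANTCA once, beginning 46 bases before the start, and TATAAA once, beginning 7 bases before it. The Igfbp5 window held neither run of letters. TGANTCA stood in 6.75% of 32851 RefSeq windows of the same length and TATAAA in 12.4%, and among 3179 windows of the genes tested below these shares were 4.40% and 7.01%. Of 3066 genes tested, 2422 matched a window. Neither motif stood in the windows of Il1rapl1 and Gria4, and 1 of 3 windows of Limch1 held TATAAA.

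Mmp3-positive FBs were a minority in every old library. They were 20 of 137 FBs (14.6%, exact 95% interval 9.15% to 21.6%) at 20 months, 5 of 65 (7.69%, 2.54% to 17.05%) at 24 months, 78 of 475 (16.4%, 13.2% to 20.1%) at 27 months and 206 of 786 (26.2%, 23.2% to 29.4%) at 28 months. The interval at 28 months lay above those of the other libraries, whose intervals overlapped. These intervals cover counting error only, and the shares are the values that chose the classes, given without a test. None of the 61 young FBs held Mmp3 after thinning. A limit of 3 counts allows a share of up to 4.92%, and the exact 95% interval reaches 5.87%. Before thinning, 2 of 59 FBs in the deeper young library held it. Of the gated FBs, 4, 3, 0 and 11 sat at the lowest gate sum of 4 at 20, 24, 27 and 28 months, and 2, 7, 2 and 6 cells fell just outside it at 3. No barcode of a gated FB was shared between old libraries.

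Other cell types, gated in the same way from the single markers above and also thinned, held Mmp3 less often. Endothelial cells held it in 4 of 1372 cells (0.292%), immune cells in 3 of 727 (0.413%), airway cells in 3 of 392 (0.765%) and smooth muscle cells (SMCs) in 215 of 3188 (6.74%). None of 144 mesothelial cells held it, which allows up to 2.08% by the same limit of 3 counts. In counts scaled to a common total (CPM), Mmp3 was at 350, 323, 495 and 1043 CPM in the gated FBs at 20, 24, 27 and 28 months. Barcodes with under 100 UMIs, which hold mostly free RNA, carried 45.4, 10.8, 57.7 and 119 CPM in the same order, below the FBs in all 4 libraries. SMCs carried 66.7, 88.5 and 149 CPM at 20, 27 and 28 months, above the free RNA and nearer to it than to the FBs. Endothelial cells carried 4.66, 3.97 and 1.46 CPM in these libraries, under the level of free RNA.

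**Figure D1:**
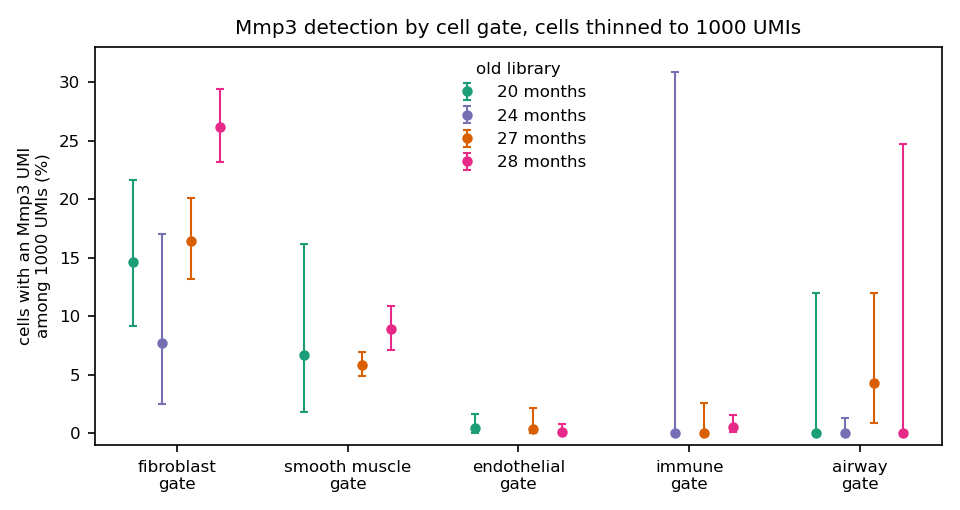
Share of cells with at least 1 Mmp3 UMI among 1000 (percent, y axis) for 5 cell gates (x axis), 1 point per old library with its exact 95% binomial interval; gates with under 10 cells in a library are not drawn. FBs sit between 7.69% and 26.2%, SMCs between 5.87% and 8.87%, and endothelial points below 0.5%.

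The level of Mmp3 varied widely among positive FBs. The median positive FB held 2, 3, 2 and 3 Mmp3 UMIs in 1000 at 20, 24, 27 and 28 months, and the highest held 8, 11, 12 and 19. Of the 309 positive FBs, 94 (30.4%) sat just inside the limit with 1 UMI, 215 held 2 or more and 86 held 5 or more. The UMIs that thinning had set aside were not used by the rule and carried the same split. In them, Mmp3 stood at 2187, 5013, 2617 and 3204 CPM in positive FBs and at 49.1, 46.2, 81.1 and 98.2 in negative FBs. The levels of negative FBs lay near those of free RNA at 20, 27 and 28 months. They were above the 4.66, 3.97 and 1.46 CPM of endothelial cells in these libraries. At 28 months the 343 Mmp3 UMIs of negative FBs stood in 93 of 580 cells. The part of free RNA in these levels was not tested. Among these UMIs, 283 of 309 positive FBs (91.6%) and 155 of 1154 negative FBs (13.4%) held Mmp3, so some negative FBs carry Mmp3 that thinning removed.

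**Figure D2:**
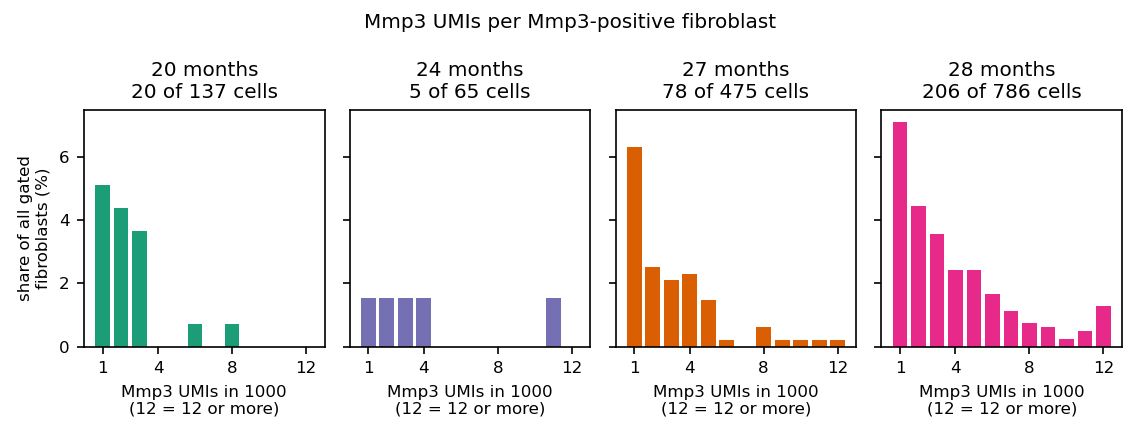
Mmp3 UMIs per Mmp3-positive FB after thinning to 1000 UMIs (x axis, 12 stands for 12 or more) against the share of all gated FBs of that library (percent, y axis). Counts of 1 are the most frequent at 20, 27 and 28 months, and a tail reaches 8 at 20 months and 12 or more at 27 and 28 months.

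Both classes carried markers of FBs, and their depths were close. Dcn, which encodes the proteoglycan decorin, had a UMI in 95% to 100% of positive and 95.7% to 98.3% of negative FBs, and Col1a2, a chain of type I collagen, in 60.0% to 100% and 59.8% to 81.6%. Col1a1, the other chain, had a UMI in 50%, 60%, 61.5% and 67.5% of positive and 39.3%, 50%, 50.4% and 63.3% of negative FBs at 20, 24, 27 and 28 months, more often in positive FBs in 4 of 4 libraries. The 10 FB markers outside the gate summed to 38793, 35951, 49611 and 41953 CPM in positive and 28282, 25383, 45159 and 37016 in negative FBs, also higher in 4 of 4. These sums carry no TMM scaling, whose factors at 24 months were 1.74 for positive and 0.879 for negative FBs. In the scaled fit described below, 6 of these 10 markers had values above 0 and 4 below. Their median log2 fold change was 0.07, and none passed the threshold. Pdgfra, a receptor that marks FBs and part of the gate, was at 401, 201, 592 and 346 CPM in positive FBs at 20, 24, 27 and 28 months and at 316, 300, 426 and 412 in negative FBs, in overlapping ranges. Pdgfrb, a receptor shared with mural cells, was seen in 0% to 10.7% and 1.67% to 9.40% of cells. Median UMIs per cell before thinning averaged 4232 ± 2591 (SD, n = 4 libraries) in positive and 4210 ± 2544 in negative FBs (two-sided exact sign-flip permutation test, p = 1). Mitochondrial shares were 1.62% and 1.83% (p = 0.25 in the same exact test) and genes per thinned cell 693.5 and 693 (p = 0.75). With 4 pairs this exact test cannot go below p = 0.125.

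Within library, positive and negative FBs differed in a short list of genes. UMIs were summed per class and library, Mmp3 itself was left out, and edgeR's quasi-likelihood test with library as a block compared the classes, with Benjamini-Hochberg adjustment over 3066 genes. At an adjusted p under 0.05, 2 genes were higher in positive FBs (0.0652% of genes tested) and 4 were lower (0.13%), 6 genes in all (0.196%). At an unadjusted p under 0.05, 55 were higher (1.79%) and 117 lower (3.82%). The median log2 fold change over all genes tested was -0.07. The positive class at 24 months held 5 cells and 4979 UMIs, so a gene at 0 there may lie as high as 603 CPM.

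Igfbp5, a secreted binding protein that holds insulin-like growth factors in the matrix, fell in every library. It was at 2606, 1406, 4887 and 2393 CPM in positive FBs at 20, 24, 27 and 28 months and at 7197, 6650, 8547 and 5221 in their negative counterparts. All 4 positive values lay below all 4 negative values. The log2 fold change was -1.40 (SE 0.26, edgeR adjusted p = 0.000214), and without each library in turn it ran from -1.55 to -1.07 and stayed past the threshold. The levels by number of Mmp3 UMIs divide the same cells further and are given as a description. At 28 months, Igfbp5 stood at 5221 CPM in FBs with 0 Mmp3 UMIs, 2771 with 1, 3229 with 2 to 4 and 1067 with 5 or more. At 27 months the same steps gave 8547, 6306, 3708 and 4633, so the level did not fall at every step. In the 20-month library FBs with 0, 1 and 2 to 4 Mmp3 UMIs held 7197, 3289 and 2278.

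Il1rapl1, a member of the interleukin 1 receptor family best known as a synaptic adhesion protein, was at 50.1, 0, 90 and 9.75 CPM in positive FBs in the order of ages above and at 85.5, 400, 189 and 131 in negative FBs. The positive value was the lower one in every library, and the log2 fold change was -2.19 (SE 0.45, adjusted p = 0.00159). Nav3, a neuron navigator protein that binds microtubules, was at 50.1, 0, 12.9 and 68.2 against 85.5, 167, 121 and 193 (log2 fold change -1.72, SE 0.39, adjusted p = 0.0121). Limch1, which binds and activates non-muscle myosin II, was at 50.1, 0, 77.2 and 171 against 188, 250, 300 and 291 (log2 fold change -1.17, SE 0.30, adjusted p = 0.0429). These calls rest on few UMIs: the positive FBs held 10 of Il1rapl1, 16 of Nav3 and 42 of Limch1 in all. For these 3 genes 50.1 CPM at 20 months is 1 UMI, and the 0 at 24 months allows up to 603 CPM, so the order of the classes at 24 months was not detectable at this depth. The call of Il1rapl1 was lost without the 24-month (log2 fold change -2.06) or 28-month library (-1.30). Nav3 lost its call without the 24-month (-1.66), 27-month (-1.47) or 28-month library (-2.57), and Limch1 without any 1 of the 4 (-2.05 to -0.89).

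Pcdh11x and Gria4 rose. Pcdh11x, a protocadherin of cell adhesion on the X chromosome, was at 150, 0, 643 and 599 CPM in positive FBs and at 76.9, 233, 340 and 272 in negative FBs. It was higher in 3 of 4 libraries, with the 24-month library at 0 of 4979 UMIs (log2 fold change 0.95, SE 0.23, adjusted p = 0.0233). Gria4, a subunit of AMPA-type glutamate receptors, was at 100, 402, 360 and 580 against 42.7, 16.7, 254 and 267. It was higher in 4 of 4 libraries, as were 5.45% of all genes tested (log2 fold change 0.95, SE 0.24, adjusted p = 0.0429). Its levels rest on 2 UMIs against 5 at 20 months and 2 against 1 at 24 months. The 402 CPM lies under the limit of 603 CPM, so the order of the classes at 24 months was not detectable at this depth. The classes overlapped across libraries for both genes. Without the 27-month or 28-month library the change of Pcdh11x was 1.00 and 0.74 and no longer passed. Without the 24-month library the change of Gria4 was 0.94 and no longer passed. Without the 20-, 27- or 28-month library Gria4 was not tested, since too few FBs at 24 months held it to pass the gene filter. Its call was thus kept in no fit that left out a library. Divided further by Mmp3 UMIs, again as a description, Pcdh11x was at 272, 304, 440 and 1038 CPM in FBs with 0, 1, 2 to 4 and 5 or more at 28 months. At 27 months it was at 340, 734, 547 and 671 over the same steps, so the highest level was not in the highest bin.

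**Figure D3:**
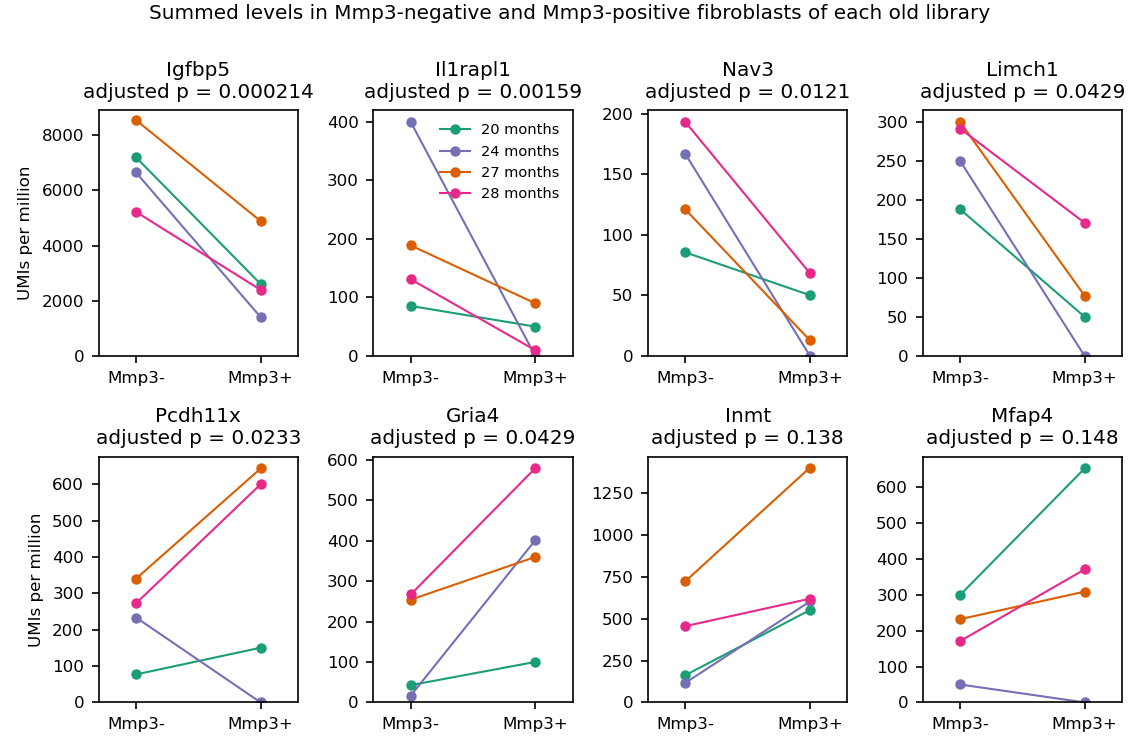
CPM (y axis, from 0) in Mmp3-negative and Mmp3-positive FBs for 8 genes, with 1 line per old library joining its 2 classes and edgeR's adjusted p above each panel. All 4 lines fall for Igfbp5, Il1rapl1, Nav3 and Limch1, all 4 rise for Gria4 and Inmt, and the 24-month line falls for Pcdh11x and Mfap4.

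**Figure D4:**
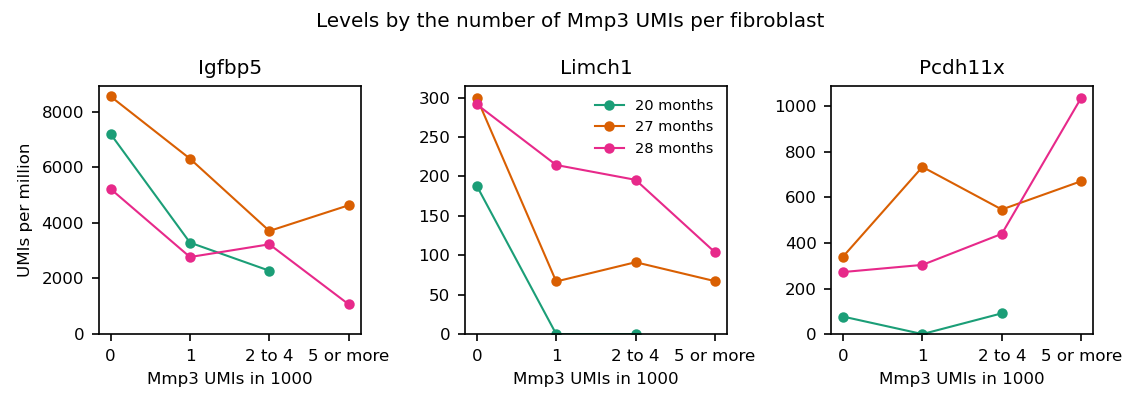
CPM (y axis) of Igfbp5, Limch1 and Pcdh11x in FBs with 0, 1, 2 to 4 and 5 or more Mmp3 UMIs in 1000 (x axis), 1 line per library; bins of under 5 cells and the 24-month library are not drawn. At 28 months Igfbp5 ends at 1067 and Pcdh11x at 1038 CPM in the highest bin.

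The next genes in order of p did not pass the adjusted threshold. Inmt, a methyltransferase, was at 551, 603, 1402 and 619 CPM in positive and 162, 117, 723 and 455 in negative FBs. It was higher in 4 of 4 libraries (log2 fold change 0.80, SE 0.23, adjusted p = 0.138), and its 603 CPM at 24 months is 3 UMIs. Mfap4, a microfibril-associated glycoprotein of elastic fibers, was at 652, 0, 309 and 370 against 299, 50, 232 and 171 (0.84, adjusted p = 0.148). Vwc2, a secreted BMP antagonist, had a log2 fold change of 0.67 (adjusted p = 0.533) and Zfp706 one of 0.94 (adjusted p = 0.381). Among genes with lower values, Tek, the angiopoietin receptor, had a log2 fold change of -1.31 (adjusted p = 0.101) and Tmtc2 one of -1.63 (adjusted p = 0.138).

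When all UMIs of the cells were summed in place of 1000 per cell, more genes passed, 40 higher (1.3%) and 63 lower (2.05%), together 3.36% of genes. The count rested on the libraries with the most FBs: it was 1 higher and 4 lower without the 28-month library and 0 and 5 without the 27-month library. Igfbp5 (log2 fold change -1.45), Nav3 (-1.65), Limch1 (-0.82), Pcdh11x (0.99) and Gria4 (0.96) passed in this fit of the same cells too, while Il1rapl1 (-1.54, adjusted p = 0.647) did not. Igfbp5 and Nav3 also passed without each library in turn. Limch1 (-0.80, adjusted p = 0.856), Pcdh11x (0.63, adjusted p = 0.999) and Gria4 (1.08, adjusted p = 0.136) lost their calls without the 28-month library. They also lost them without the 27-month library (Limch1 -1.10, adjusted p = 0.0792). Tmtc2 (-1.31, adjusted p = 1.02e-09), Vwc2 (0.77, adjusted p = 0.000145) and Tek (-0.61, adjusted p = 0.00552) also passed with all UMIs. None of them did so without the 28-month library. Zfp706 (0.20, adjusted p = 0.856) did not pass, and Inmt and Mfap4 are given below. Without TMM scaling of the thinned sums, 9 genes were higher and 7 lower, a different split.

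Of the genes of the Pi16 type of adventitial FBs, 1 passed on thinned sums, Limch1, as lower, against 0.13% of all genes tested. All 19 tested members of the 20-gene list had a fitted log2 fold change below 0, as did 59.7% of all genes tested, with a median of -0.43 against -0.07. When all UMIs were summed, 8 members passed as lower, against 2.05% of all genes, and 1 of them without the 27-month or without the 28-month library. On thinned sums no member passed once any 1 library was left out. The summed level of the list was 13081, 12854, 15457 and 12735 CPM in positive FBs and 17077, 17117, 17940 and 15234 in negative FBs, lower in 4 of 4 libraries. Of the members, 9 were lower in all 4 libraries, as were 11.5% of all genes tested. Cd55, which shields cells from complement, was at 150, 0, 219 and 224 against 239, 850, 413 and 357 (log2 fold change -0.91, adjusted p = 0.138; -1.33, adjusted p = 7.88e-13 with all UMIs, and past the threshold without each library in turn). Sema3c, a secreted semaphorin, was at 251, 0, 437 and 458 against 556, 583, 612 and 736 (-0.77, adjusted p = 0.333; -0.85, adjusted p = 9.44e-06 with all UMIs). Dpp4, a membrane peptidase, had a log2 fold change of -0.80 (adjusted p = 0.616) and of -0.80 with all UMIs (adjusted p = 4.53e-05). With all UMIs, Sema3c and Dpp4 lost their calls without the 27-month (adjusted p = 0.139 and 0.222) or the 28-month library (0.382 and 0.999).

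Members of the list for Abca8a Svep1 FBs, another adventitial type, gave no call on thinned sums. Of 14 tested, 9 had values above 0 and 5 below, with a median of 0.23. The summed level was 3809, 7632, 8320 and 8061 CPM in positive and 2855, 3733, 6547 and 6833 in negative FBs, higher in 4 of 4 libraries. Also higher in 4 of 4 were the sums of FB markers outside the gate and of protease and inhibitor, complement, proteoglycan and Wnt genes. None of these sums carries TMM scaling. In the library with 7632 against 3733 CPM, the TMM factors were 1.74 for positive and 0.879 for negative FBs. The size of that difference thus depends on the scaling. Inmt, Mfap4 and Fmo2, a flavin monooxygenase (log2 fold change 0.56, adjusted p = 0.752, on thinned sums), passed as higher with all UMIs, against 1.3% of all genes. None of these 3 passed with all UMIs without the 27-month or the 28-month library. Penk, the precursor of enkephalins, was at 100, 201, 77.2 and 43.9 against 25.6, 150, 128 and 86.2, with 2 libraries in each direction.

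Sorting each FB by whether the Pi16 or the Abca8a Svep1 list held more of its UMIs gave the same order of Mmp3 detection in each library. Where the Pi16 list was larger, 13.5%, 7.02%, 16.0% and 22.8% of FBs were Mmp3-positive at 20, 24, 27 and 28 months. Where the Abca8a Svep1 list was larger, 25.0%, 12.5%, 18.8% and 32.6% were. The second group held 16, 8, 96 and 239 FBs, of which 4, 1, 18 and 78 were positive. The exact intervals of both groups overlapped at 20, 24 and 27 months but not at 28 months (19.2% to 26.6% and 26.7% to 39.0%). They cover counting error within 1 animal only. FBs with equal sums were in neither group, and 1 of 10, 4 of 28 and 11 of 33 of them were Mmp3-positive at 20, 27 and 28 months. When the classes were compared within these groups, 15 of 19 Pi16 members had values below 0, with a median of -0.18, and none passed. The UMIs of these same lists set the groups, so smaller differences of their members, Limch1 among them, follow in part from the sorting. No conclusion is drawn from them. That fit left out groups with under 5 Mmp3-positive FBs, which removed the 24-month library and the Abca8a Svep1 group at 20 months. Each group of a library was its own block. The 27- and 28-month animals thus entered with both groups as separate pairs that are not independent, which its p-values ignore. In that fit Igfbp5 was lower in positive FBs (log2 fold change -0.83, adjusted p = 4.90e-05) and Pcdh11x higher (1.13, adjusted p = 6.89e-05). Mgp, an inhibitor of calcification, also passed in that fit (0.51, adjusted p = 0.0166). Limch1 (-0.91, adjusted p = 0.202) and Gria4 (0.95, adjusted p = 0.0865) did not.

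**Figure D5:**
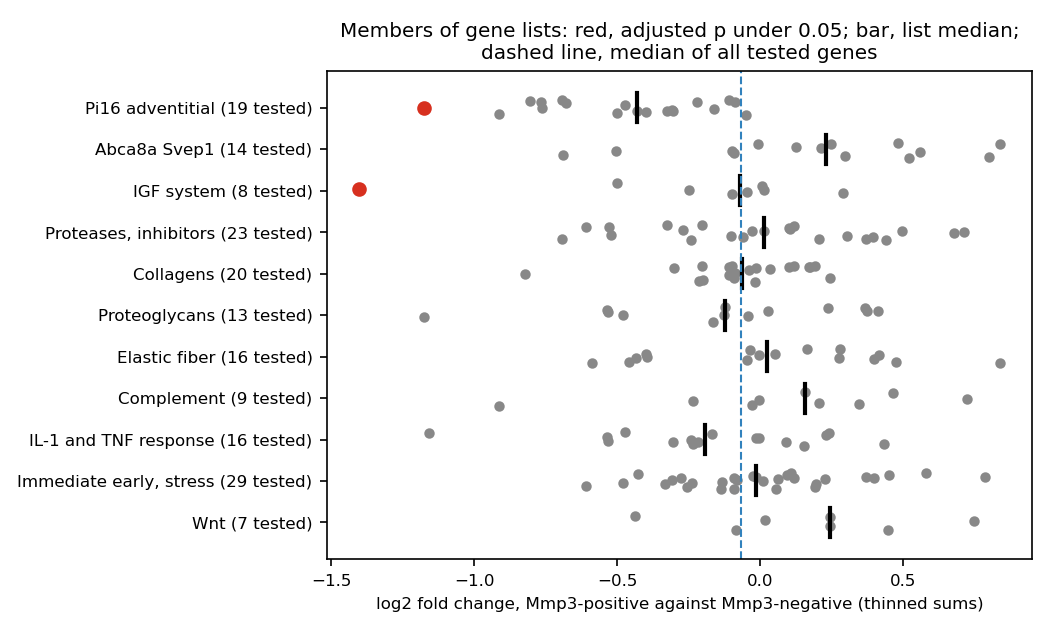
Log2 fold change of Mmp3-positive against Mmp3-negative FBs (x axis) for the tested members of 11 gene lists (y axis), 1 point per gene, with list medians as black bars and the median of all tested genes as a dashed line. The 19 Pi16 members all lie below 0, and red points mark Limch1 and Igfbp5, the members that passed.

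In the insulin-like growth factor system, 1 of 8 tested members passed, against 0.196% of all genes tested. It was Igfbp5, already described. Igf1, the growth factor, was at 201, 402, 347 and 268 CPM in positive and 188, 183, 441 and 315 in negative FBs, in overlapping ranges. Igfbp6, a binding protein that prefers IGF-II, was at 802, 603, 810 and 512 against 1308, 700, 897 and 738, with a log2 fold change of -0.50 (adjusted p = 0.849; adjusted p = 0.0218 with all UMIs). Igfbp4 held 2556, 4017, 2842 and 2320 against 1957, 2017, 2924 and 2429, with 2 libraries in each direction. The summed level of the 13 genes was lower in 4 of 4 libraries, at 7286 to 10339 against 10615 to 14116 CPM, and Igfbp5 is counted in it. Without Igfbp5 the sum was 6014, 6628, 5452 and 4893 CPM in positive and 4821, 4633, 5569 and 5395 in negative FBs, higher in 2 libraries and lower in 2.

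Other proteases and their inhibitors gave no call on thinned sums. Of 23 tested, 12 had values above 0 and 11 below, with a median of 0.01. Mmp2, a gelatinase, was at 150, 402, 373 and 268 CPM in positive and 359, 233, 340 and 347 in negative FBs, with 2 libraries in each direction. Mmp14, a membrane-bound activator of Mmp2, was at 100, 201, 129 and 195 against 214, 217, 134 and 214. Mmp9, Mmp10, Mmp12 and Mmp13 had 0 UMIs in both classes after thinning. Among inhibitors, Timp1 had a log2 fold change of 0.68 (adjusted p = 0.842), and among proteases Htra3 had -0.61 (adjusted p = 0.616) and Adamts5, an aggrecanase, -0.53 (adjusted p = 0.842). With all UMIs, Htra3 and Adamtsl1 passed as lower and Cst3, a cystatin that inhibits cathepsins, passed as higher. Over all genes, 1.3% passed as higher and 2.05% as lower in that fit. No member of the list passed with all UMIs without the 27-month or the 28-month library.

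On thinned sums, matrix genes showed no common direction. Among 20 tested collagens and collagen-processing genes, 7 had values above 0 and 13 below, with a median of -0.06 and none past the threshold, and Col12a1 had the lowest value (-0.82, adjusted p = 0.916). Of 16 elastic fiber genes, 8 were above and 8 below 0. Eln, which encodes elastin, was at 451, 0, 1247 and 634 CPM in positive and 205, 150, 693 and 583 in negative FBs (log2 fold change 0.48, adjusted p = 0.849), and Fbn1, which encodes fibrillin-1, was at 501, 1004, 990 and 1292 against 769, 1433, 1280 and 1840 (-0.59, adjusted p = 0.746). Has2, a hyaluronan synthase, had a log2 fold change of -1.18 (adjusted p = 0.842), with 7 UMIs in positive FBs in all. Mgp was at 6516, 5021, 6095 and 5322 against 2487, 2233, 5229 and 3390, higher in 4 of 4 libraries, and missed the threshold on thinned sums (0.58, adjusted p = 0.746) but passed with all UMIs (0.86, adjusted p = 0.000347). That call was lost without any 1 of the 4 libraries (adjusted p = 0.0947 to 0.764). Ccn5, a matricellular Wnt target, had 0.75 (adjusted p = 0.627).

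Of the known responses to interleukin 1 and TNF, which can induce Mmp3, 16 were tested. On thinned sums 5 had values above 0 and 11 below, with a median of -0.19 and none past the threshold. With all UMIs the median was 0.05. Vcam1, an adhesion molecule for leukocytes, then passed as higher (0.57, adjusted p = 0.00982), against 1.3% of all genes. Has1, a hyaluronan synthase, passed as lower (-0.60, adjusted p = 0.0203), against 2.05%. Neither passed without the 27-month or the 28-month library. Cxcl1, a chemokine, was at 251, 1607, 77.2 and 4.87 CPM in positive and 641, 2367, 75.6 and 6.90 in negative FBs (log2 fold change -1.16, adjusted p = 0.356), and differed more between libraries than between classes. Tnfaip6, a hyaluronan-binding protein, had -0.53 (adjusted p = 0.873). Of 29 immediate early and stress genes, which tissue digestion can induce, 14 had values above 0 and 15 below, with Gadd45g at 0.79 (adjusted p = 0.746). Of 15 cytokine receptors, 4 had values above 0 and 11 below. Complement genes were mixed, with C7 at 0.73 (adjusted p = 0.616) beside the lower value of Cd55. With all UMIs, 3 complement genes passed as higher, C7 among them (0.54, adjusted p = 0.013), and 1 as lower, Cd55. None passed as higher with all UMIs without the 27-month or the 28-month library. Cdkn1a, the cell cycle inhibitor p21, was at 401, 402, 257 and 136 against 316, 217, 300 and 148, with 2 libraries in each direction (-0.11, adjusted p = 0.999). On thinned sums none of 7 Wnt genes and 7 TGF-beta and myofibroblast genes passed, with Ccn2 at 0.49 (adjusted p = 0.872). With all UMIs Ccn5 (0.72, adjusted p = 0.000313), Ccn2 (0.70, adjusted p = 0.000261) and Acta2 (0.94, adjusted p = 3.55e-07) passed as higher and Bmp6 (-1.0, adjusted p = 9.72e-05) as lower. Over all genes, 1.3% passed as higher and 2.05% as lower in that fit. Neither list held a call with all UMIs once the 27-month or the 28-month library was left out.

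Markers of other cell types moved with the classes in part. The 8 mesothelial markers summed to 50.1, 0, 12.9 and 19.5 CPM in positive and 179, 567, 60.5 and 169 in negative FBs. Wt1, Lrrn4, Krt19, Krt8, Krt18, Upk1b and Gpm6a were at 0 in positive FBs. With FBs of more than 1 UMI of these markers, Msln and Upk3b left out, Igfbp5 (log2 fold change -1.44), Il1rapl1 (-1.85), Nav3 (-1.76) and Pcdh11x (0.98) passed, and Limch1 (-1.17) and Gria4 (0.94) did not. The 8 SMC markers summed to 3007, 0, 604 and 219 against 2273, 83.3, 345 and 202, higher in positive FBs in 3 of 4 libraries, with Acta2 at a log2 fold change of 0.58 (adjusted p = 0.815). With all UMIs both tested SMC markers, Acta2 (0.94, adjusted p = 3.55e-07) and Myl9 (0.56, adjusted p = 0.0191), passed as higher, against 1.3% of all genes. Neither marker passed with all UMIs without the 27-month or the 28-month library. The part of SMC RNA in the other calls with all UMIs was not tested. A further fit left out FBs with more than 1 UMI of Acta2, Tagln, Cnn1, Des, Actg2 and Myh11 together. Myl9, Rgs5 and Notch3 were not part of that filter. In this fit Igfbp5 (-1.38), Il1rapl1 (-2.12) and Nav3 (-1.87) passed, and Limch1 (-1.14), Pcdh11x (0.91) and Gria4 (0.95) did not. The 8 endothelial markers, most of it Tek, were lower in positive FBs in 4 of 4 libraries, and the 10 immune markers were higher in 2 of 4, and their part in the results was not tested. The library described as a male of 20 months held 3113 UMIs of Xist and 25 of Eif2s3y, which goes against that description. The male of 27 months held 230 and 1997, the female of 28 months 21952 and 0, and the library of 24 months 335 and 379. Each class comparison stays within a library.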

How the data were processed

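The authors prepared droplet libraries with 10x 3′ chemistry, and read counting was done by STARsolo on GRCm38.p6 after trimming in Cutadapt. What the authors deposited are raw UMI counts of each barcode for 53647 genes, with no normalization. Old libraries held 7042921 to 50436562 UMIs and 897 to 3732 kept cells. Gene names are the files' own symbols, and levels are CPM, UMIs of a gene per UMI of its class and library on a common scale. Levels and counts of libraries higher or lower carry no TMM scaling, while the fitted log2 fold changes do. The classes, gene lists and tests were chosen with earlier results of these data known. The fixed seed was 1.

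Summed counts were fitted in edgeR 4.0.16 (R 4.3.3) with TMM and robust quasi-likelihood, for genes with a UMI in over 5% of FBs in at least 3 libraries. The block is the animal, since both classes come from the same library. Only in the comparison within the Pi16 and Abca8a Svep1 groups was each group of a library its own block. Cells were not replicates. The block takes up the differences between animals. The p-values thus measure how the class difference varies among 4 animals, described as of both sexes and of different ages, with dispersion moderated across genes. Doublets were kept, and removing those marked by scrublet (scanpy 1.11.5) was an alternative. It marked under 0.5% of the 20-month library, where the top share expected at 0.8% per 1000 barcodes was taken. The fit was also run on simulated data, and the outcome is not given here or used for any result. DESeq2 1.42.0 was an alternative. Named genes are the 6 leading genes in each direction by p, the up to 3 of each list with the smallest p, and the gate genes and Cdkn1a. Other genes named, among them Dpp4, Sema3c, Pdgfrb, Penk, Igf1, Igfbp4, Igfbp6, Mmp2, Mmp14 and Cst3, were chosen after their values were seen. Of the genes so named, 1 is not reported here. Promoter windows and positions are from RefSeq. Figures were drawn with matplotlib 3.10.9.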

Additional observations from a re-analysis of the deposited data

Results flagged for a closer look

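Of 63 sets of 4 old libraries examined, 6 held 1 library far from the other three, and chance marks about 1 set in 20. In Mmp3-positive FBs the Pi16 list summed to 15457 CPM at 27 months, above the other libraries, and the Abca8a Svep1 list to 3809 at 20 months, below them. The list of interleukin 1 and TNF responses stood apart at 24 months in both classes, at 15465 CPM in positive and 17450 in negative FBs. SMC markers summed to 2273 in negative FBs at 20 months, above the other libraries, and airway markers to 603 in positive FBs at 24 months, which are 3 UMIs. The cause of these differences was not tested.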

How the results depend on the processing

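The block on the animal carries the calls: with no replicate block, 0 genes were higher and 0 lower (5 and 41 at an unadjusted p under 0.05), against 2 and 4. Counts in pairs give genes higher and lower. Leaving out each library gave 0 to 1 higher and 1 to 3 lower. They were 0 and 1 with DESeq2 (23 and 36 unadjusted), 9 and 7 without TMM, 6 and 3 with filterByExpr, 1 and 9 with no gene filter, 1 and 1 thinned to 500 UMIs, 28 and 18 thinned to 2000, 1 and 4 with seed 2 and 4 and 10 with seed 3. A gate of 8 gave 5 and 9, at most 10% mitochondrial UMIs 4 and 5, at least 2000 UMIs and 1000 genes 5 and 4, removal of marked doublets 1 and 4, and 2 or more Mmp3 UMIs 4 and 2. All UMIs gave 40 and 63, and the limits used in the study (over 2-fold, unadjusted p below 0.05) gave 3 and 33. Alternatives chosen after seeing the data gave 4 and 8 with negatives at 0 Mmp3 before thinning, 0 and 3 with few SMC UMIs, 1 and 3 with few mesothelial UMIs, 34 and 50 with all UMIs and filterByExpr, and 31 and 49, 49 and 65, 0 and 5 and 1 and 4 with all UMIs without the 20-, 24-, 27- and 28-month library. The cause was not tested. In the 24-month library too few positive FBs reach 2000 UMIs, so it is absent from both settings at that depth.

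Igfbp5 kept its direction in all 28 alternatives, from -1.76 to -0.83, and missed the threshold thinned to 2000 UMIs (-1.12, edgeR adjusted p = 0.623) and without the block (-1.43, adjusted p = 1.000). The other called genes kept their direction but often lost their call in the alternatives that tested them. Limch1 lost it in 19 of 28, Il1rapl1 in 11 of 25, Pcdh11x in 10 of 27, Gria4 in 10 of 20 and Nav3 in 9 of 26. None of them passed with DESeq2. Zfp706 turned to -0.16 with 2000 UMIs and 1000 genes, -0.31 with a gate of 8, -0.16 thinned to 2000, -0.051 with seed 3 and -0.047 without doublets. Cdkn1a turned to 0.32 with 2000 UMIs and 1000 genes, 0.015 with a gate of 8, 0.22 with seed 2, 0.080 with all UMIs, 0.029 with filterByExpr added, and 0.12, 0.086 and 0.061 with all UMIs without the 20-, 24- and 28-month library, and ran from -0.14 to 0.027 (without the 27-month library) when 1 library was left out of thinned sums. Ccn2 ran from -0.15 (without the 28-month library) to 0.82. The difference in UMIs per cell ran from -93.5 (without the 27-month library) to 91.5 and was -176 with 2000 UMIs and 1000 genes, and that in genes per cell from -0.67 to 1.67, and -0.50. The mean share of Mmp3-positive FBs over libraries ran from 11.2% to 19.3% beside 16.2%, and at 24 months the share went from 7.69% to 17.2% with a gate of 8 and to 0 of 4 FBs thinned to 2000. Depth limits low genes most: 3 UMIs equal 603 CPM in the positive class at 24 months.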

Other observations

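Of the proteoglycan and hyaluronan genes, Dcn, Has1, Has2 and Tnfaip6 are given above. Of the whole list, 13 were tested, with 5 values above 0 and 8 below. The median log2 fold change between Mmp3-positive and Mmp3-negative FBs was -0.12. None passed in edgeR on thinned sums at an adjusted p under 0.05, with 0 higher and 2 lower at an unadjusted p under 0.05. Vcan, the large proteoglycan versican, was at 100, 803, 321 and 258 CPM in positive and 265, 400, 438 and 353 in negative FBs at 20, 24, 27 and 28 months, higher only in the 24-month library. With all UMIs, 1 member of the list passed as higher and 3 as lower, Vcan among them (-0.51, adjusted p = 0.0347). Over all genes, 1.3% passed as higher and 2.05% as lower in that fit. No member passed with all UMIs without the 27-month or the 28-month library.

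Ribosomal protein genes made up a median of 11.1% of UMIs in positive and 10.6% in negative FBs (mean over 4 libraries, higher in 3 of 4, two-sided exact sign-flip permutation test, p = 0.375). Of 22 genes that the study names for senescence, singly or as a group, among them secreted proteins, receptors and cell cycle inhibitors, 12 were tested. Their values were above 0 for 5 and below for 7. Of these, 1 passed, Igfbp5, against 0.196% of all genes tested. The study names IGF binding proteins only as a group, so Igfbp5 is not named by itself. The study scored senescence with a published gene list and called Cdkn1a and Cdkn2a canonical markers. It picked out other genes by their levels in these animals. It also names Mmp3, which set the classes here, among the senescence genes increased only in FBs.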
